A study of Mus musculus with 12 samples.

Results

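A set of 8 genes used to tell the subsets of dendritic cells apart were followed through bulk RNA sequencing of 4T1 tumors. The genes were Clec9a, Batf3, Zbtb46, Cd209a, Ccr7, Fscn1, Siglech and Itgax, chosen by symbol from a fixed list, and all 8 of 8 were found among the 55401 genes of the expression table. The tumors came from the mouse mammary carcinoma line 4T1, injected orthotopically into Balb/c mice bought at 6 to 8 weeks of age, and treatment began once tumors measured about 100 mm3. The 4 groups of 3 tumors received an IgG1-Fc isotype protein (control), interleukin-10 fused to an Fc (IL-10-Fc), an antibody that blocks the receptor of colony-stimulating factor 1 (aCSF1R), or BF10, in which human interleukin-10 sits on that antibody. The sources used here disagree on the number of doses, so none is given. All groups share the 1 transplanted line and the strain. Each tumor gave 1 library, and replicate numbers are those of the sample titles. Nothing says that the tumors of a group came from separate cages or days, so p-values measure the spread between these samples.

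Dendritic cells take up antigen and show it to T cells. Classical dendritic cells divide into cDC1, which depend on the factor Batf3 and present antigen of dead cells to CD8 T cells, and cDC2, which mostly prime CD4 T cells. Plasmacytoid dendritic cells (pDC) are the main makers of type I interferon, and any classical subset that matures in a tumor gains the receptor Ccr7 and moves to the draining lymph node. In tumors these cells are scarce beside macrophages, which depend on the receptor for colony-stimulating factor 1 and share some of the same surface genes.

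The expression level is given as TPM, the deposited FPKM of a library brought to a common total of 1000000. A change is the difference of group means of log2(TPM + 1), tested with limma over 15504 genes that reached 1 TPM in at least 3 libraries, and a gene was called when its p, adjusted by the method of Benjamini and Hochberg, was below 0.05 and its change at least 1.5-fold. All 8 members passed this filter. Estimated depth was even, at 30500000 to 35600000 reads per library. In contrast, the libraries fell into 2 sets by the sum of their deposited FPKM values, 5 higher-sum libraries (782919 to 921581) and 7 lower-sum libraries (609695 to 648413). Each group held at least 1 library of both sets. Mitochondrial genes took 3.14 to 3.96% of the TPM of lower-sum libraries and 5.90 to 9.26% of that of higher-sum libraries, and with the groups held the sets differed in 9180 of the 15504 genes (59.2%). The cause of the sets is not given in the sources used here. A second fit therefore took the library set as a term in the model, and its value is given where it changed a call or moved a change. The median of all tested genes was above 0 in the comparisons with control, at 0.24 for aCSF1R, 0.32 for BF10 and 0.35 for IL-10-Fc, and the set term brought it to 0.01, 0.07 and 0.10.

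The start regions of 3 members are printed because each holds a short motif of factors known in dendritic cells, and because one of them belongs to the member whose groups differed. The 250 bases before the RefSeq start (GRCm38.p6) were found for 7 of the 8 members, Ccr7 being the other one. They were searched on both strands for the PU.1 core GAGGAA, the AP-1 motif TGANTCA, which is the same on both strands and which Batf3 and its partners bind, and the motif of interferon regulatory factors, a pair of GAAA repeats 2 bases apart. No pair of matches overlapped. Capitals mark the match. Itgax lies on chr7:128129300-128129549 (plus strand), Zbtb46 on chr2:181424389-181424638 (minus strand) and Batf3 on chr1:191098164-191098413 (plus strand). The windows of Zbtb46 and Batf3 lie inside the gene spans given below for them, since the RefSeq starts used here lie downstream of the GENCODE starts. For Zbtb46 the window ends at base 181424638, while the gene on its minus strand begins at base 181459426. Whether transcription starts at these internal positions was not tested, so these 2 windows may not be promoters.
Itgax: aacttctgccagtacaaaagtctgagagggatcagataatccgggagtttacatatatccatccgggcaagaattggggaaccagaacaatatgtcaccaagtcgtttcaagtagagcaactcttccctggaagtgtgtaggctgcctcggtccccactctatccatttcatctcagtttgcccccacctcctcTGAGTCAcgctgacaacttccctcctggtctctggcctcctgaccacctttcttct
Zbtb46: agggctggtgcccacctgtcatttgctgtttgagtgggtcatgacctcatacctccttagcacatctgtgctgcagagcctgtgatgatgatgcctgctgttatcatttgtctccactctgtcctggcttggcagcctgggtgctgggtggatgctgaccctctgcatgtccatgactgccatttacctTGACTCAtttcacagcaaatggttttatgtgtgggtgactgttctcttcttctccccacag
Batf3: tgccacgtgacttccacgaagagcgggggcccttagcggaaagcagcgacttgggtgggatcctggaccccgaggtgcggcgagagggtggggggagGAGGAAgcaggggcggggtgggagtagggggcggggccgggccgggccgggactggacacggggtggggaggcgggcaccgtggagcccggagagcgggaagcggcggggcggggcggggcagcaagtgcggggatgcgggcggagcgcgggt
The AP-1 letters stood 56 to 50 bases before the RefSeq start of Itgax and 61 to 55 bases before the internal RefSeq start of Zbtb46, and 6.75% of 32851 mouse promoters of the same length hold them. The window of Batf3 held the PU.1 core, as did 23.3% of all promoters. None of the 7 windows held the interferon regulatory factor motif, present in 2.98% of promoters. These letters are a description of the windows, and binding was not measured.

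Across the 12 tumors the members spanned very different levels. Fscn1, which codes for fascin, an actin-bundling protein of mature dendritic cells that many carcinoma cells also make, had a mean of 215.6 TPM and stood at percentile 95.9 of the tested genes. Itgax followed at percentile 40.6, Batf3 at 33.1 and Zbtb46 at 25.5. The lineage-restricted surface genes were near the floor of the measurement, with Ccr7 at percentile 14.6, Cd209a at 10.4, Siglech at 6.66 and Clec9a at 2.83. At the estimated depth Clec9a rested on about 30 to 152 reads per library, Cd209a on 9 to 162, Ccr7 on 11 to 130 and Siglech on 16 to 167. The log2(TPM + 1) scale also compresses the changes of genes this low. Itgax rested on 38 to 1619 reads and Fscn1 on 5964 to 17799. The receptors Xcr1, which defines cDC1, and Flt3, the receptor for the growth factor of dendritic cells, were lower still, at 0.0868 to 0.512 and 0.141 to 1.01 TPM, and neither reached the test. These tumors therefore held the defining dendritic cell transcripts at low levels.

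**Figure D1:**
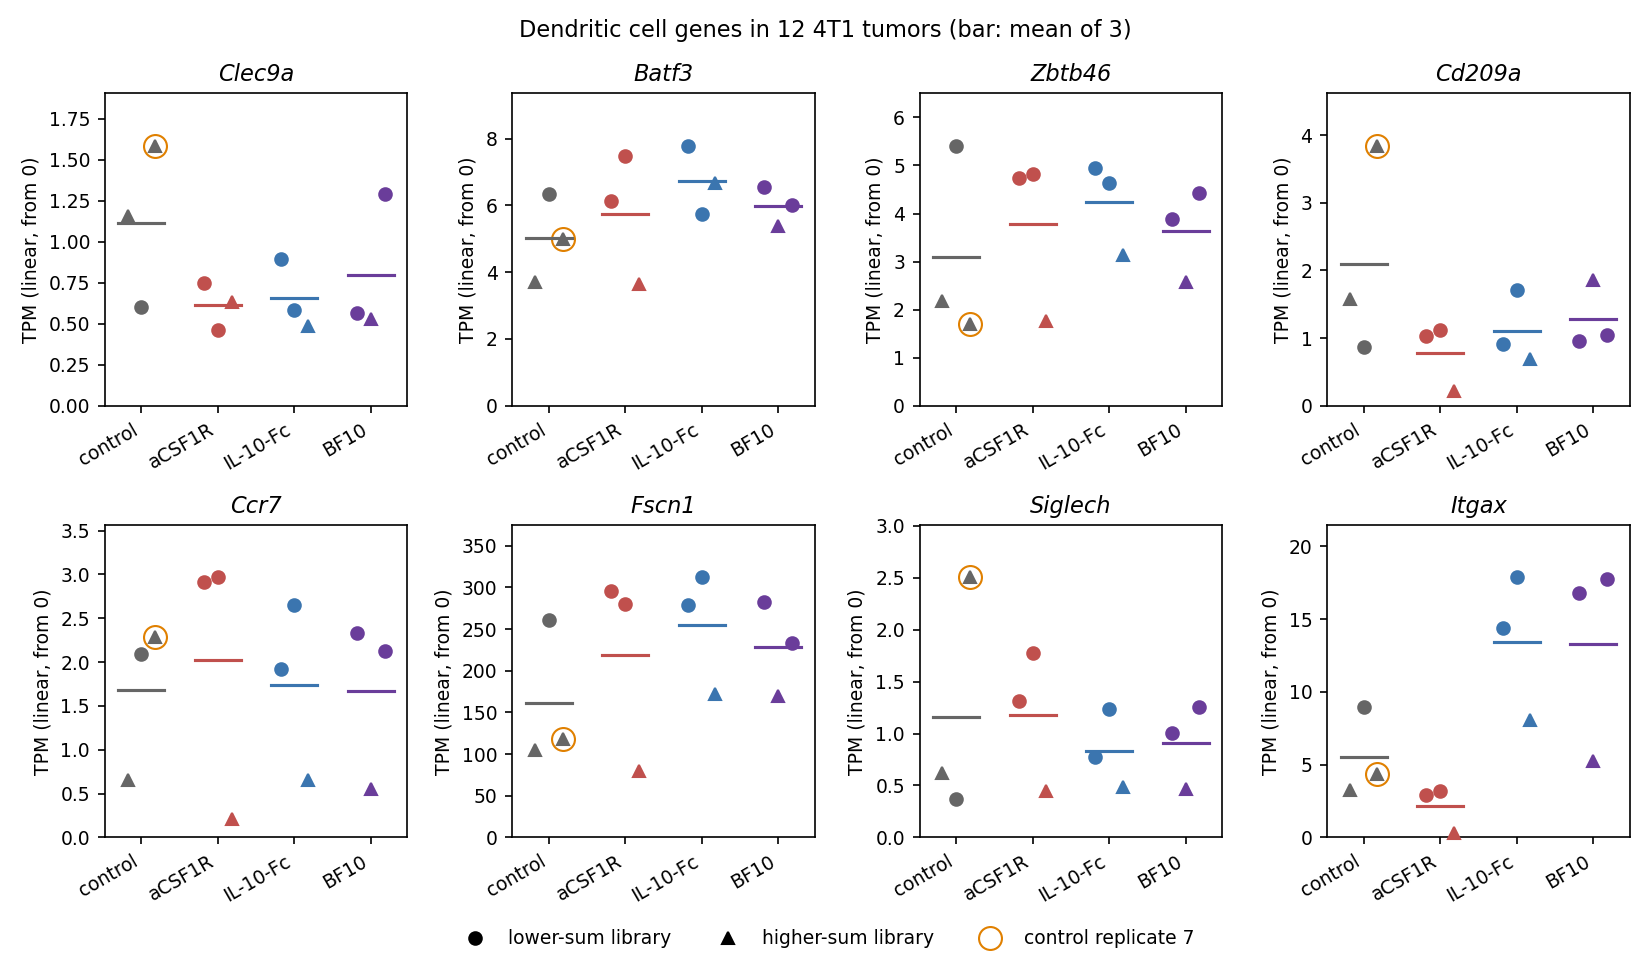
TPM of the 8 members (linear axis from 0) in each of the 12 tumors, by treatment group, with a bar at the mean of 3. Circles are lower-sum and triangles higher-sum libraries, and the ring marks control replicate 7. Itgax lies lowest in the 3 aCSF1R tumors, while Clec9a, Cd209a and Siglech peak in the ringed library.

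Itgax was the 1 member whose groups stood apart. It codes for CD11c, the integrin alpha chain long used to stain dendritic cells, which many macrophages also carry (GRCm38, chr7:128129547-128150657, plus strand, 30 exons in its longest transcript, ENSMUSG00000030789). In the control tumors replicates 4, 5 and 7 it measured 3.27, 8.92 and 4.36 TPM. The aCSF1R replicates 4, 6 and 8 had 2.91, 3.18 and 0.336 TPM. IL-10-Fc replicates 2, 4 and 7 stood at 14.4, 17.9 and 8.07 TPM. All aCSF1R tumors were thus below every control tumor, although aCSF1R replicate 6 and control replicate 4 nearly touched. In BF10 replicates 3, 6 and 7 the level was 16.8, 5.27 and 17.8 TPM. The order of the group means was aCSF1R (2.14 ± 1.57 TPM, SD, n = 3), control (5.52 ± 3.00), BF10 (13.3 ± 6.96) and IL-10-Fc (13.4 ± 4.97). BF10 and IL-10-Fc lay above all aCSF1R tumors, overlapped each other, and both overlapped control, where the highest tumor (8.92 TPM) passed the lowest BF10 and IL-10-Fc tumors.

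With the groups alone in the model, 0 of the 8 members were called by limma in any comparison, and 1 of 8, Itgax, had an unadjusted p under 0.05 in both comparisons of an interleukin-10 protein with aCSF1R. The share called among all tested genes was 0.735% for BF10 against aCSF1R, 0.542% for IL-10-Fc against aCSF1R, 0.568% for aCSF1R against control, 0.00645% for IL-10-Fc against control and 0% when BF10 was set against control or IL-10-Fc. In these last 2 comparisons limma gave 234 and 42 genes at an unadjusted p under 0.05, and 0 members among them. Itgax was 2.19 ± 0.58 (log2, SE) higher in BF10 than in aCSF1R, 4.58-fold, with a limma unadjusted p of 0.00321 and an adjusted p of 0.236. IL-10-Fc exceeded aCSF1R by 2.30 (4.94-fold, limma adjusted p = 0.224). The change of aCSF1R against control was -1.13 with a 95% interval of -2.41 to 0.16 (adjusted p = 0.893). BF10 tumors exceeded control by 1.07 (adjusted p = 0.788) and IL-10-Fc tumors by 1.18 (adjusted p = 0.738).

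Once the library set entered the model, the spread behind the differences of Itgax shrank, those from control also changed in size, and 3 differences were called. Itgax fell by 1.55 in aCSF1R against control, where the groups alone gave -1.13 (2.93-fold, limma adjusted p = 0.00195). It was 2.19 higher in BF10 than in aCSF1R (adjusted p = 0.000118) and 2.30 higher in IL-10-Fc than in aCSF1R (adjusted p = 0.000137). Over the alternatives tried, the adjusted p of these 3 differences ranged from 0.00195 to 1, from 0.000118 to 0.971 and from 3.41e-06 to 0.955. In this fit 2.01%, 2.82% and 2.13% of all tested genes were called in these 3 comparisons. Itgax itself was lower in the higher-sum libraries with the groups held (limma adjusted p = 3.34e-05). Within the lower-sum libraries alone the difference of BF10 from aCSF1R was 2.18, and within the higher-sum libraries, with 1 tumor each, it was 2.23. For aCSF1R against control the 2 values were -1.30 and -1.84, and for IL-10-Fc against aCSF1R 2.07 and 2.76. The excess over control was 0.64 for BF10 (95% interval 0.19 to 1.10, adjusted p = 0.993) and 0.75 for IL-10-Fc (0.30 to 1.21, adjusted p = 0.942), neither called. In those comparisons the model called 0.00645% and 0.0258% of genes.

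BF10 and IL-10-Fc could not be told apart by Itgax. The difference was -0.11 with an interval of -1.39 to 1.18 with groups alone and -0.55 to 0.33 with the set term, which called 0% of genes in this comparison, with 141 genes at an unadjusted p under 0.05 and 0 members among them. The 2 proteins differ in that BF10 carries the interleukin-10 on the antibody. The non-additive contrast, which is BF10 minus aCSF1R minus IL-10-Fc plus control, was 1.02 for Itgax with groups alone (adjusted p = 0.975), where 0.29% of all genes were called. With the set term it was 1.44 (adjusted p = 0.0376), where 1.21% were called, and it was no longer called without control replicate 7. Its 4 groups are those of the comparisons above and give no separate evidence.

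Groups of 3 did not overlap for Itgax in 3 comparisons, lower in aCSF1R than in control and higher than aCSF1R in both BF10 and IL-10-Fc. Such separation was seen in 5.28%, 5.91% and 7.49% of all tested genes. The other 7 members overlapped in every comparison, as did Itgax in the remaining 3, where 3.53% (BF10 against control), 6.53% (IL-10-Fc against control) and 2.13% (BF10 against IL-10-Fc) of genes did not.

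**Figure D2:**
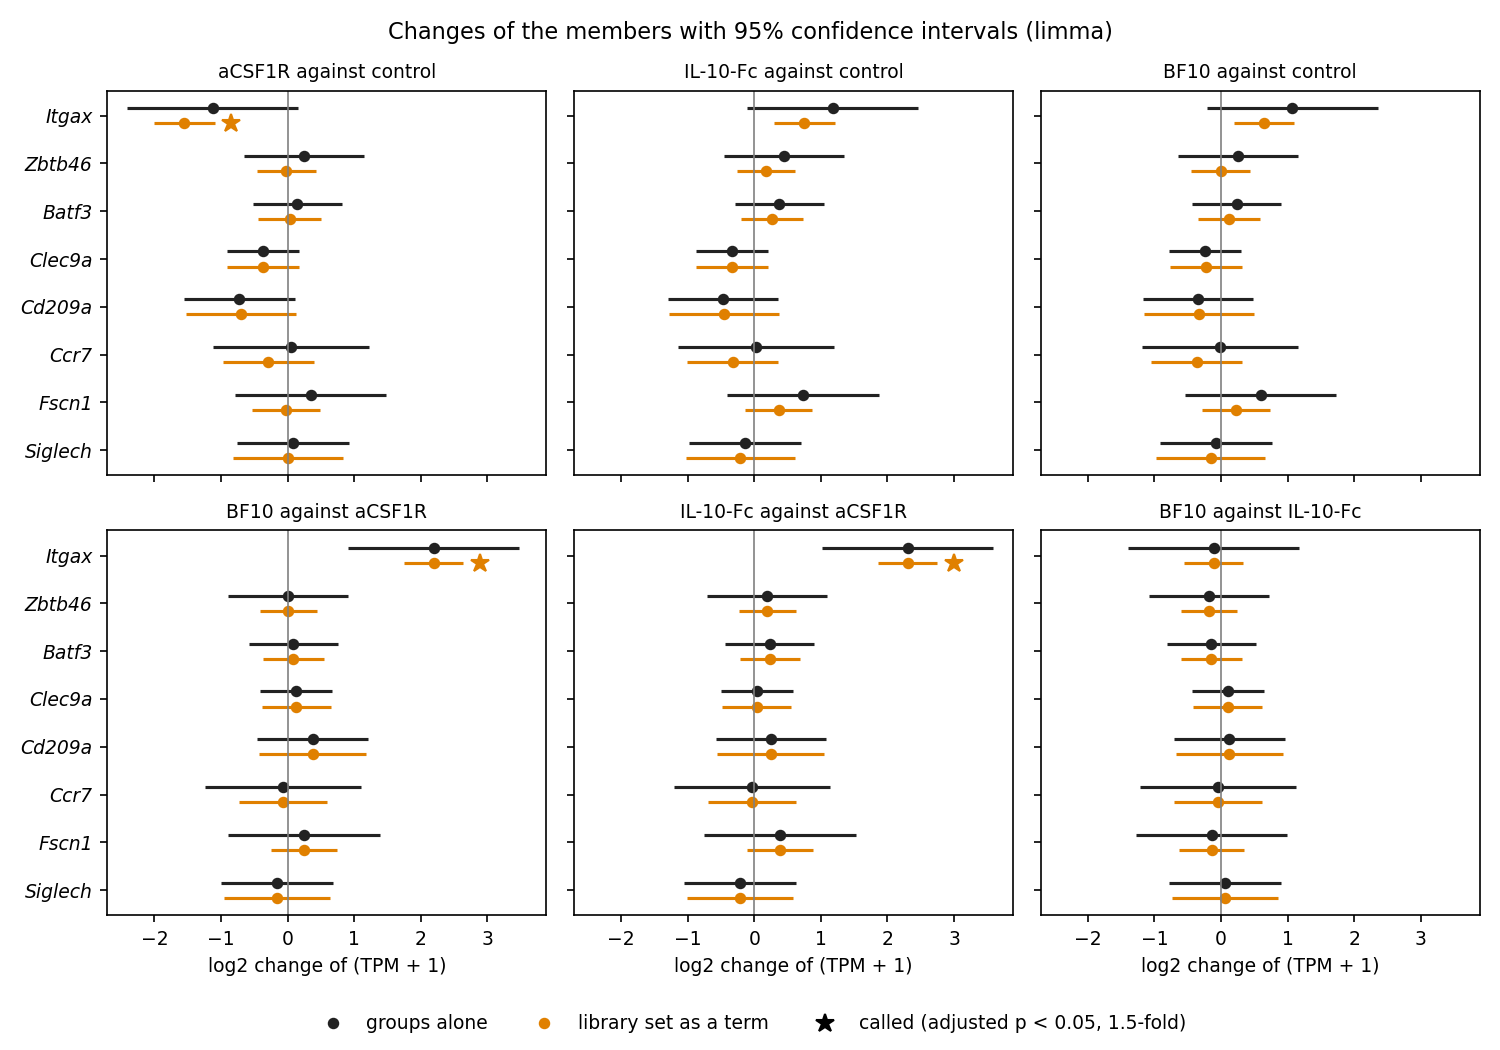
Log2 change of (TPM + 1) of each member in the 6 comparisons, with 95% confidence intervals from limma, for the model with groups alone (black) and with the library set as a term (orange). Stars mark calls, which are the 3 of Itgax that involve aCSF1R, at -1.55, 2.19 and 2.30.

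Macrophage genes were low in the same aCSF1R tumors as Itgax, and CD11c is carried by both cell types. Of 12 macrophage markers, all of them above 1 TPM on average and none at 0 throughout, 7 were called lower in aCSF1R than in control and 0 higher. Their summed level was 85.9 to 272.4 TPM in aCSF1R and 1821 to 2312 in control, 1524 to 1736 in IL-10-Fc and 1820 to 1880 in BF10. The IL-10-Fc tumors were below every control tumor in this sum, and the BF10 tumors lay at the low end of the control range, while the mean of Itgax was above that of control in both. C1qa, a complement component of tissue macrophages, fell by 3.98 (limma adjusted p = 0.000685) and the mannose receptor gene Mrc1 fell by 2.96 (adjusted p = 0.00111). Csf1r, the target of the antibody, ranged from 1.26 to 20.6 TPM in aCSF1R and from 18.8 to 92.7 TPM in control. As a percentage of the summed macrophage TPM, Itgax stood at 0.392 to 1.73% in aCSF1R, 0.180 to 0.479% in control, 0.530 to 1.03% in IL-10-Fc and 0.280 to 0.977% in BF10. The lowest percentage of each group was that of a higher-sum library, of which control held 2 and each other group 1. These ranges therefore mix treatment with the library set. The part of the macrophage transcripts in the level of Itgax was not tested. In bulk tumors fewer cells of a type and less RNA per cell cannot be told apart.

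**Figure D3:**
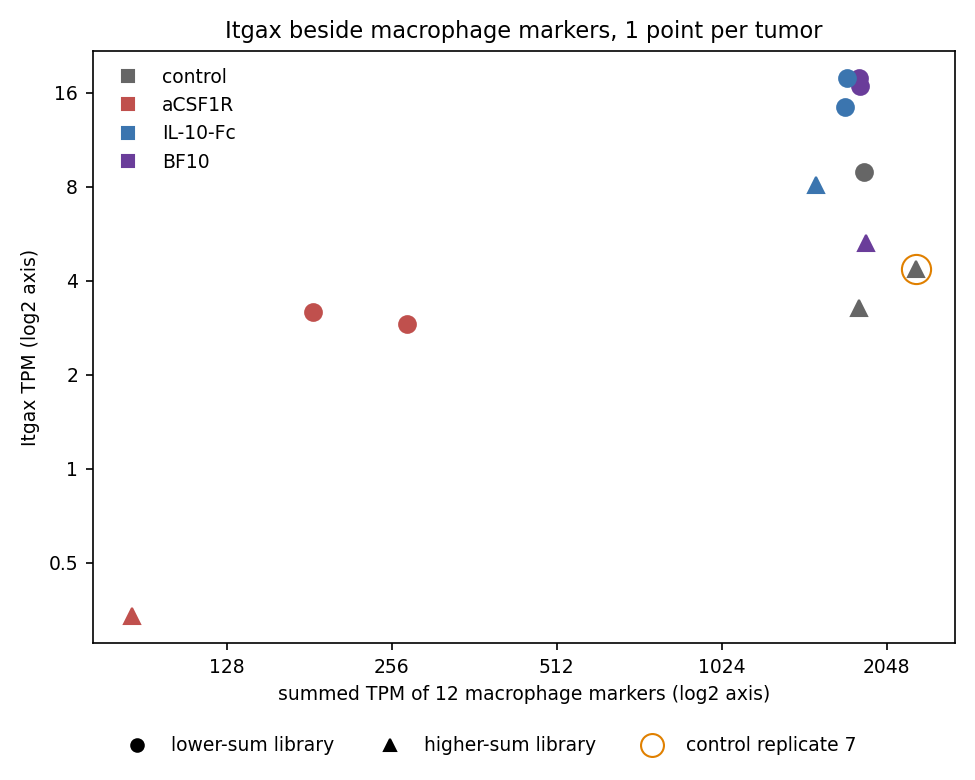
Itgax TPM against the summed TPM of 12 macrophage markers, both on log2 axes, 1 point per tumor, coloured by treatment. The 3 aCSF1R tumors sit at 85.9 to 272.4 summed TPM and the other 9 at 1524 to 2312, where Itgax ranges from 3.27 to 17.9 TPM. Among these 9 the range follows the library set, with 3.27 to 8.07 TPM in higher-sum and 8.92 to 17.9 TPM in lower-sum libraries.

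Likeness over the 12 libraries was measured as Pearson's r of log2(TPM + 1) after the mean of each library set was taken out. Differences between the treatment groups were left in, so r includes them and is only a description across libraries of similar depth. The 3 genes most like Itgax were Entpd1 (r = 0.966), which codes for the ectonucleotidase CD39, the cation channel gene Trpv2 (0.964) and Psd4 (0.964). Cd68 (0.964), Itgam (0.946) and Csf1r (0.940), all myeloid genes, came close to them. C1qa (0.891) followed, then Clec10a (0.835) and Irf8 (0.818), which dendritic cells and macrophages both make. The other members were less like it, as Fscn1 was at 0.497, Batf3 at 0.375, Zbtb46 at 0.251, Cd209a at 0.345, Clec9a at 0.169, Ccr7 at 0.074 and Siglech at -0.072. A near-identical neighbour could take reads of Itgax, as 5.01% of its 75-base windows also occur in Itgad, but Itgad was at 0 to 0.288 TPM.

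The cDC1 members did not part the groups. Clec9a codes for a receptor of actin filaments on dead cells and marks cDC1 (chr6:129408862-129424763, plus strand). It measured 1.16, 0.603 and 1.59 TPM in control replicates 4, 5 and 7. The aCSF1R replicates 4, 6 and 8 had 0.748, 0.459 and 0.629 TPM, IL-10-Fc replicates 2, 4 and 7 had 0.895, 0.586 and 0.485 TPM, and BF10 replicates 3, 6 and 7 had 0.563, 0.531 and 1.29 TPM. Only 3 libraries reached 1 TPM, of which 2 were controls, and the largest difference, aCSF1R against control, was -0.37 (95% interval -0.91 to 0.17). Without control replicate 7 that difference was -0.21. The reads of Clec9a overlap with Clec1b in 3.23% of windows.

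Batf3, the AP-1 factor that cDC1 need to develop and that T cells and other cells also use, was steadier (chr1:191097847-191108945, plus strand). Control replicates 4, 5 and 7 stood at 3.71, 6.35 and 4.99 TPM and aCSF1R replicates 4, 6 and 8 at 6.13, 7.48 and 3.66 TPM. The level was 7.79, 5.75 and 6.68 TPM in IL-10-Fc replicates 2, 4 and 7 and 6.55, 5.38 and 6.01 TPM in BF10 replicates 3, 6 and 7. From lowest to highest tumor Batf3 spanned 2.13-fold, the narrowest range of the members. Its largest difference, 0.38 in IL-10-Fc against control, had a 95% interval of -0.29 to 1.04. Clec9a and Batf3, both cDC1 genes, had r = -0.296 with each other.

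Zbtb46 codes for a zinc finger factor of classical dendritic cells and their committed precursors, and endothelial cells also make it (chr2:181387762-181459426, minus strand). In control replicates 4, 5 and 7 it was at 2.18, 5.41 and 1.71 TPM and in aCSF1R replicates 4, 6 and 8 at 4.73, 4.82 and 1.77 TPM. In IL-10-Fc replicates 2, 4 and 7 it was at 4.95, 4.63 and 3.13 TPM and in BF10 replicates 3, 6 and 7 at 3.89, 2.57 and 4.42 TPM. The low tumors of each group were its higher-sum libraries, and the sets differed by -0.80 in Zbtb46 with the groups held (limma adjusted p = 0.000472). The largest treatment difference was 0.44, in IL-10-Fc against control, and it was 0.17 with the set term. Zbtb46, unlike Itgax, differed between BF10 and aCSF1R by only 0.01 (95% interval -0.89 to 0.91).

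Cd209a, a mouse gene for a DC-SIGN-like lectin of monocyte-derived cells and some cDC2, was highest in control replicate 7 (chr8:3743397-3748984, minus strand). Control replicates 4, 5 and 7 had 1.58, 0.873 and 3.85 TPM, and aCSF1R replicates 4, 6 and 8 had 1.02, 1.12 and 0.217 TPM. IL-10-Fc replicates 2, 4 and 7 had 0.911, 1.71 and 0.690 TPM and BF10 replicates 3, 6 and 7 had 0.954, 1.86 and 1.04 TPM. The aCSF1R against control difference was -0.72 (95% interval -1.55 to 0.11) and shrank to -0.34 without control replicate 7. In the lower-sum libraries alone it was 0.14, and in the higher-sum ones -1.54.

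The maturation genes differed between the library sets, and no treatment difference of theirs was called. Ccr7 codes for the receptor that leads mature dendritic cells and naive T cells along CCL19 and CCL21 (chr11:99144196-99155077, minus strand). It was at 0.650, 2.10 and 2.28 TPM in control replicates 4, 5 and 7, at 2.91, 2.97 and 0.206 in aCSF1R replicates 4, 6 and 8, at 1.92, 2.65 and 0.651 in IL-10-Fc replicates 2, 4 and 7, and at 2.33, 0.555 and 2.13 in BF10 replicates 3, 6 and 7. Each of the 4 low values belonged to a higher-sum library, the fifth of which, control replicate 7, was high. With the groups held the sets differed by -1.04 (limma adjusted p = 0.0016). Between treatments no difference of Ccr7 passed 0.07 in size with groups alone, yet its intervals reached beyond 1 either way. With the set term the differences from control were -0.29 in aCSF1R, -0.36 in BF10 and -0.32 in IL-10-Fc, none of them called.

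Fscn1 was abundant in every tumor (chr5:142960343-142973185, plus strand). Control replicates 4, 5 and 7 had 105.1, 260.3 and 117.9 TPM, and aCSF1R replicates 4, 6 and 8 had 295.9, 279.7 and 80.3 TPM. IL-10-Fc replicates 2, 4 and 7 had 279.4, 312.2 and 171.6 TPM, and BF10 replicates 3, 6 and 7 had 281.9, 170.2 and 233.0 TPM. Its 5 lowest tumors were the 5 higher-sum libraries, and the sets differed in it with the groups held (limma adjusted p = 0.000146). The 0.73 of IL-10-Fc over control (95% interval -0.40 to 1.87) became 0.37 with the set term. Over the libraries Fscn1 had r = 0.781 with Irf8, 0.771 with Krt8, a keratin of the tumor cells, 0.738 with Batf3, 0.665 with Zbtb46 and 0.218 with Ccr7.

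Siglech, a surface lectin that marks pDC, had its highest value in the same control tumor as Cd209a (chr7:55768178-55778925, plus strand). It measured 0.617, 0.365 and 2.51 TPM in control replicates 4, 5 and 7 and 1.32, 1.77 and 0.445 TPM in aCSF1R replicates 4, 6 and 8. IL-10-Fc replicates 2, 4 and 7 stood at 0.770, 1.23 and 0.485 TPM and BF10 replicates 3, 6 and 7 at 1.00, 0.470 and 1.26 TPM. The control group held both its lowest and its highest tumor. The difference of aCSF1R from control was 0.09 with all libraries and 0.50 without control replicate 7, and that of BF10 from control went from -0.07 to 0.34. With the set term they were 0.01 and -0.15. No call depended on it.

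Control replicate 7 stood apart from the other 11 tumors in genes of lymph nodes and B cells. The 8 B cell markers summed to 78.1 TPM there and to 0.998 to 7.28 elsewhere, with all 8 of 8 highest in it. A list of 6 lymph node stroma genes summed to 484.2 against 6.40 to 100.3 TPM in the others, led by Glycam1 of high endothelial venules at 249.5 TPM and by the chemokine Ccl21a at 190.1 TPM. Ccl19, the other ligand of Ccr7, was at 4.68 TPM in this tumor and at 0 to 0.202 in the rest. Of the 6 other CD209 genes, 5 were highest there, and Cd209b, the lectin of marginal zone and sinus macrophages, was at 7.55 TPM against 0 to 0.804. Of the members, 3 of 8 (37.5%) peaked in it (Clec9a, Cd209a and Siglech), where 2.95% of all tested genes did. It also had the highest macrophage sum (2312 against 85.9 to 1880 TPM). Its NK cell sum was the highest only by a little, at 25.56 TPM against 13.46 to 24.96 TPM. T cell markers, at 46.6 TPM, lay within the 15.6 to 69.1 TPM of the others. The source of the B cell and lymph node transcripts, and its part in the low-level members, was not tested. Leaving control replicate 7 out left 0 of 8 members called in each comparison with groups alone.

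**Figure D4:**
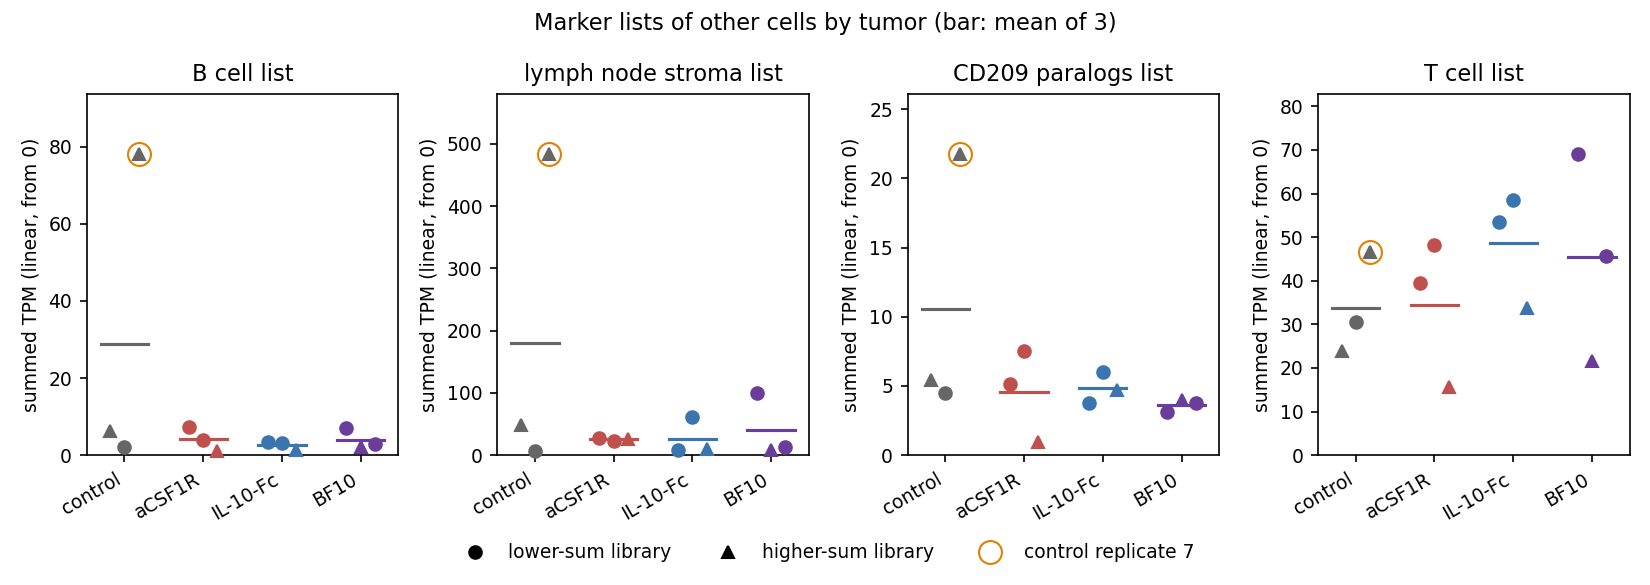
Summed TPM (linear axes from 0) of B cell, lymph node stroma, CD209 paralog and T cell markers in each of the 12 tumors, with bars at the group means. The ringed control replicate 7 leads the first 3 panels, at 78.1, 484.2 and 21.8 TPM, and is mid-range for T cells.

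The same measure of likeness, with the set means taken out, named the neighbours of the other members. The genes most like Ccr7 were Cd209g (r = 0.940), Cd209d (0.933) and Gm8369 (0.917). Cd209a was most like the immunoglobulin gene Ighm (0.919), then Kmo (0.872) and Ifi27l2a (0.868). Siglech went with Ighg2c (0.912), Chrdl1 (0.895) and 1700123M08Rik (0.885), and with Ccr7 itself at 0.879. For Clec9a the closest were Igkv14-126 (0.809), the killer cell lectin gene Klrb1c (0.797) and 2310010J17Rik (0.784). The more abundant members had other neighbours: Fscn1 had Castor2 (0.977), Shisa4 (0.973) and Edf1 (0.973), Zbtb46 had Ythdf2 (0.977), Fnbp1l (0.976) and Jmjd4 (0.971), and Batf3 had Gm5422 (0.966), Eral1 (0.964) and Pigq (0.956). By TPM, control replicate 7 was the highest tumor for 3 of the 4 low-level members, all but Ccr7. With the set means taken out it was the highest for Ccr7 too. Its 2.28 TPM of Ccr7 stood beside 0.206 to 0.651 TPM in the other higher-sum libraries. Cd209g and Cd209d also had their highest TPM in it, at 3.14 and 5.14. The part of this 1 tumor in these r values was not tested.

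The wider dendritic cell lists held 59 further genes, of which 45 were tested. Only aCSF1R against control gave calls with groups alone, 2 of 45, both lower, where 0.568% of all tested genes were called. Mgl2, a galactose lectin of cDC2 and macrophages, measured 7.19, 13.6 and 16.3 TPM in control replicates 4, 5 and 7 and 0.683, 2.18 and 0.184 in aCSF1R replicates 4, 6 and 8, and it fell by 2.78 (limma adjusted p = 0.0204). Cd86, a costimulatory ligand of all antigen-presenting cells, measured 16.4, 10.9 and 24.0 TPM in control and 4.10, 3.72 and 3.65 in aCSF1R, and it fell by 1.84 (adjusted p = 0.0171). The groups did not overlap for either, as was so for 5.28% of all tested genes. Control replicate 7 was the highest of all 12 tumors for both, and without it the changes were -2.56 (adjusted p = 0.131) and -1.58 (adjusted p = 0.072), with 0 of 45 called by limma and 5 at an unadjusted p under 0.05.

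By list, the median change of aCSF1R against control was -0.18 for 8 tested cDC1 genes, -0.50 for 8 cDC2 and monocyte-derived genes, -0.47 for 12 genes of mature migratory cells, 0.44 for 9 pDC genes and -0.39 for 8 genes of growth factor and chemokine axes, beside 0.24 over all tested genes. The members had a median of 0.07. With the set term the same medians were -0.47 for cDC1, -0.93 for cDC2 and monocyte-derived, -0.67 for mature migratory, 0.09 for pDC and -0.54 for growth factor and chemokine genes, beside 0.01 over all tested genes, and that of the members turned to -0.16. In BF10 against aCSF1R, where limma called 0 of 45 and 12 had an unadjusted p under 0.05, the largest list median was 1.33, of the cDC2 and monocyte-derived genes, against 0.06 over all genes and 0.11 over the members. IL-10-Fc against aCSF1R gave 1.32 for that list. It contains myeloid genes that macrophages also make, such as Itgam and Sirpa. Of the 14 genes in the pDC list, Ccr9, Spib, Pacsin1, Cox6a2 and Cd300c were too low to be tested. Its median rests on the other 9, among them Bst2 at 106.4 to 521.2 TPM, and which cells made them was not tested.

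With the set term 7 of the 45 were called lower in aCSF1R than in control (Naaa, Mgl2, Itgam, Cd83, Cd86, Tlr7 and Csf2ra), 11 higher in BF10 than in aCSF1R and 6 higher in IL-10-Fc than in aCSF1R. The shares of all tested genes called in these comparisons were 2.01%, 2.82% and 2.13%. Itgam, which codes for CD11b of the same integrin family as CD11c, fell by 1.84 in aCSF1R (limma adjusted p = 0.0104). Csf2ra, the receptor chain for GM-CSF, fell by 2.16 (adjusted p = 0.00752). In the same fit 10 of 12 macrophage markers were called lower in aCSF1R than in control. These genes were picked out after their values were seen.

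**Figure D5:**
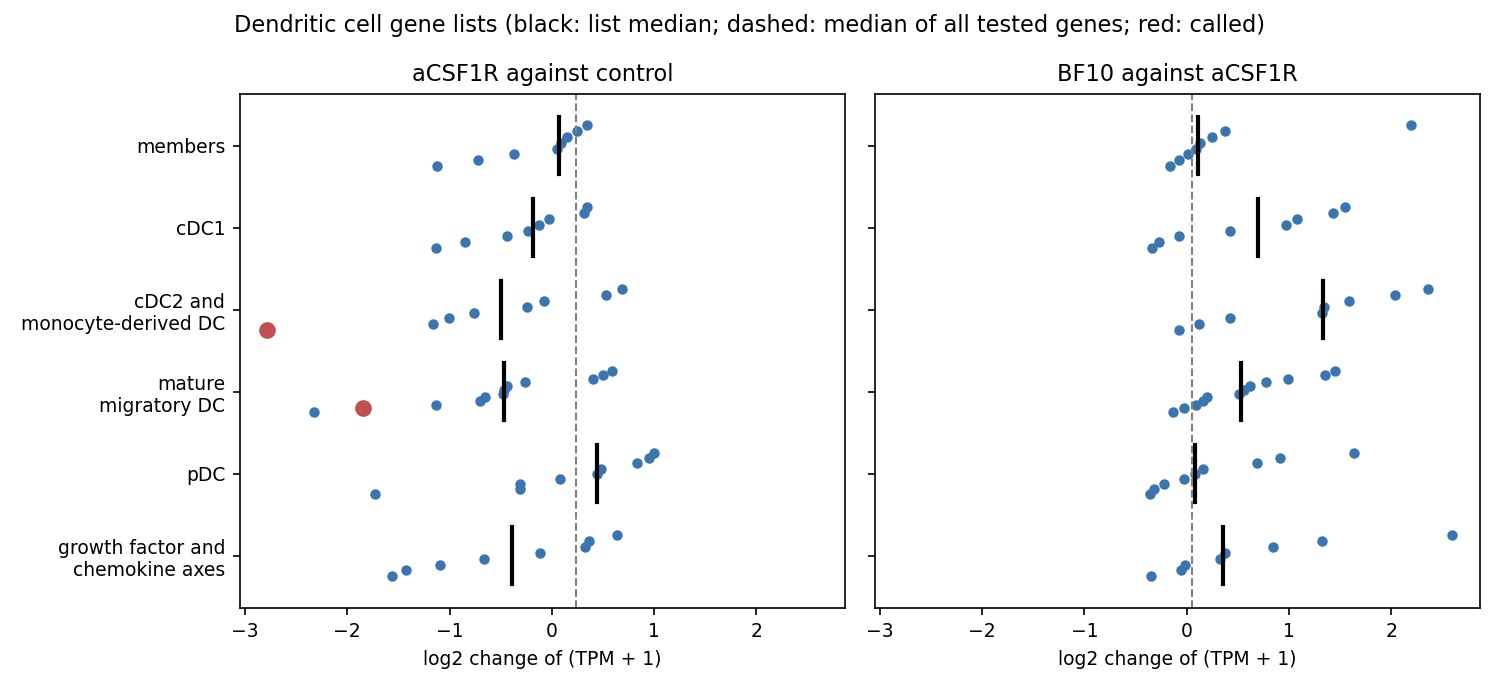
Log2 change of (TPM + 1) of the members and of 5 dendritic cell lists, 1 point per tested gene, with groups alone in the model. Black lines are list medians, the dashed line the median of all tested genes and red points the 2 calls, Mgl2 (-2.78) and Cd86 (-1.84). The cDC2 and monocyte-derived list sits at -0.50 on the left and at 1.33 on the right.

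Flt3l, Ccl22, Irf8 and Ccl21a, fixed for naming whatever their values, were not called in any comparison with control, by limma with groups alone or with the set term. Flt3l, the growth factor of all dendritic cells, ranged from 4.81 to 22.8 TPM and differed from control by 0.33 in aCSF1R, 0.65 in BF10 and 0.45 in IL-10-Fc (limma adjusted p = 0.893, 0.788 and 0.74), which became -0.13, 0.20 and -0.01 with the set term. Ccl22, a chemokine of mature dendritic cells, ranged from 0.217 to 4.53 TPM with differences from control of -0.26, -0.39 and -0.37, or -0.68, -0.81 and -0.79 with the set term. Irf8, the factor that cDC1 and pDC share and that macrophages also make, was at 14.3 to 55.1 TPM in control and at 28.4 to 76.5 TPM in BF10, a difference of 0.96 (adjusted p = 0.788) that was 0.41 with the set term. It was at 32.8 to 66.2 TPM in IL-10-Fc, 0.86 above control (limma adjusted p = 0.738), and at 6.26 to 53.8 TPM in aCSF1R. Ccl21a varied from 0.0628 to 190.1 TPM, and its difference of BF10 from control turned from -1.05 to 0.59 without control replicate 7.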

How the data were processed

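RNA was extracted with TRIzol, made into stranded mRNA libraries and sequenced on an Illumina NextSeq, per the labels and the study's methods. The table deposited by the authors holds FPKM, fragments per kilobase of transcript and relative to all mapped fragments, with 2 decimals for 55401 genes in 12 libraries, on the mouse build GRCm38. The submitters' processing notes name STAR 2.7.5a, RSEM 1.3.3 and DESeq2 1.28.0, without saying which step each served. A further 4 tables hold the authors' own comparisons (log2 fold changes, p-values and mean counts) and were not used. Every column was matched by name, with 0 left over.

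FPKM was divided by the library sum and brought to a total of 1000000 (TPM). Tests ran on log2(TPM + 1), which understates the change of low genes, in R 4.3.3 with limma 3.58.1 (moderated by eBayes with a trend), 1 mean per group, all 12 libraries and Benjamini-Hochberg adjustment over the 15504 genes at 1 TPM or more in at least 3 libraries. FPKM is no count, so no count model was run. Depth was estimated from low values of genes with 1 transcript, which step by whole reads, with 78.9 to 81.7% of them within 0.2 of a whole read. Reads per member use the longest GENCODE M21 transcript. Coordinates are GRCm38, with start regions from RefSeq.

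The members, the lists and the tests were chosen with earlier results of these data known. Named genes were all 8 members, up to 4 called genes of each dendritic cell list, 7 fixed genes (Xcr1, Flt3, Flt3l, Ccl19, Ccl21a, Ccl22, Irf8), the CD209 paralogs and the 3 genes most like each member. The fit was tested on simulated data that held no difference between the library sets, with a spread estimated with the set in the model. That test does not cover the wider spread met by the fit with groups alone. Alternatives covered the pseudocount, scaling, filter, library set, weights, fold minimum, groups fitted alone, replicate block and each library left out. Replicate numbers 4, 6 and 7 recur between groups. The 7 same-numbered pairs had a median r of -0.39 (range -0.66 to 0.42) in their deviations from the group means. The library sets were left in these deviations. Whatever the number, all pairs within a set had a positive r and all pairs across the sets a negative one. This measure therefore cannot decide whether the numbers pair the tumors, and they were not taken as pairs in the main fit.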

Additional observations from a re-analysis of the deposited data

How the results depend on the processing

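Each group held 3 tumors, and 4 members rested on few reads. For the members called, 0 throughout with groups alone, the count rose to 1, always Itgax, in BF10 against aCSF1R and in IL-10-Fc against aCSF1R with FPKM without rescaling, median-of-ratios scaling, the lower-sum libraries alone or the library set as a term. The set term also gave 1 in the non-additive contrast and 1 when aCSF1R was set against control. The set term without control replicate 7, added after the data were seen, kept 1 in the 3 comparisons with aCSF1R (limma adjusted p = 0.0104, 0.000304 and 0.000333 for Itgax) but not in the non-additive contrast. Against control, sample quality weights gave 3 in aCSF1R, 4 in BF10 and 3 in IL-10-Fc, and against aCSF1R they gave 1 in IL-10-Fc and 1 in BF10, with 3 in the non-additive contrast. That setting called 9898, 8967 and 9274 of 15504 genes against control, and the cause was not tested.

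For the other dendritic cell genes, sample quality weights called 23, 26 and 30 against control (aCSF1R, BF10, IL-10-Fc), and 11 (BF10) and 21 (IL-10-Fc) against aCSF1R. The set term called 7 in aCSF1R against control, 11 in BF10 against aCSF1R and 6 in IL-10-Fc against aCSF1R, or 4, 12 and 7 without control replicate 7. In aCSF1R against control, 1 was called with no filter and 0 with lower-sum libraries alone, with the 2 groups alone and with the replicate block. BF10 against aCSF1R gave 4 with lower-sum libraries alone and 1 with a pseudocount of 0.1, FPKM without rescaling or median-of-ratios scaling. Without single libraries the counts ran from 0 to 3 in aCSF1R against control (0 without aCSF1R replicate 4 or control replicate 7, 1 without aCSF1R replicate 6, aCSF1R replicate 8 or control replicate 4) and from 0 to 1 in BF10 against aCSF1R (1 without BF10 replicate 6, control replicate 5 or control replicate 7).

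Uncalled changes that turned sign were Zbtb46 in IL-10-Fc against control (-0.15) and Cd209a in aCSF1R against control (0.14), both with the lower-sum libraries alone, where control is 1 tumor assumed to vary like the other groups. Ccr7 in BF10 against aCSF1R was 0.11 with a pseudocount of 0.1 and -0.64 to 0.28 without single libraries. Itgax in BF10 against IL-10-Fc was 0.10 with lower-sum libraries alone and -0.41 to 0.41 without single libraries. With the replicate block, which leaves 2 residual degrees of freedom, Itgax was 0.14 in aCSF1R against control, 0.0903 in BF10 against IL-10-Fc and -0.0489 in the non-additive contrast, and 0 members were called. Whether the numbers shared by groups pair the tumors could not be decided from these values. Without single libraries the adjusted p of Itgax ran from 0.0868 to 0.971 in BF10 against aCSF1R and from 0.139 to 0.955 in IL-10-Fc against aCSF1R. Over every alternative it ran from 0.00195 to 1 in aCSF1R against control, and from 0.0376 to 1 in the non-additive contrast. Siglech and Ccl21a in BF10 against control and the members' median in aCSF1R against control, all uncalled, also turned sign, as given in the report.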
